A study of Mus musculus with 6 samples.

Results

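The 10 genes described here form the core of the circadian clock and its best known output in the mouse. They are Arntl, Npas2, Per1, Per2, Per3, Cry1, Cry2, Nr1d1, Nr1d2 and Dbp. They were chosen by gene name as 10 of the 51826 genes in the deposited table, each name matched 1 row, and all 10 passed the filter on low counts together with 18956 genes in all. The study sequenced messenger RNA in 6 libraries of mouse brain, with the paraventricular nucleus of the hypothalamus given as the tissue. The 3 wild-type libraries (WT) are male replicates 1 and 2 and female replicate F1, and the 3 libraries of the glutamatergic neuronal ADAM17 knockout (KO) are likewise male replicates 1 and 2 and female replicate F1; values of males are always given in the order of replicates 1 and 2. The labels give no age, strain, Cre driver, floxed exon, treatment or time of day of collection, and do not say whether a library holds 1 animal or a pool.

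The clock is a feedback loop of transcription factors that runs with a period of about a day in nearly every cell. ARNTL (also called BMAL1) pairs with CLOCK or its relative NPAS2, binds E-box sequences and switches on the Per and Cry genes, the nuclear receptor genes Nr1d1 and Nr1d2 (REV-ERB alpha and beta) and Dbp. PER and CRY proteins return to the nucleus and inhibit that pair, while the REV-ERB proteins repress Arntl and Npas2 through ROR elements, so that Arntl and Npas2 RNA run nearly opposite to Nr1d1 and Dbp RNA over the day. Per1 also answers directly to neuronal activity and to glucocorticoids. The master clock of the brain is the suprachiasmatic nucleus, which lies below the paraventricular nucleus.

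Libraries held 35114426 to 54421330 counts, and the members had between 490 and 7698 counts each in a library. Mitochondrially encoded genes took 20.6% of the counts in KO replicate 1 and 7.22% to 9.20% in the other 5 libraries. Levels are given as CPM, counts scaled to library size by trimmed means of M values (TMM). Adam17 itself stood at 17.1 and 17.2 CPM in the WT males, 15.6 CPM in the WT female, 15.4 and 14.6 CPM in the KO males and 13.9 CPM in the KO female, and did not pass the test (log2 fold change −0.19, SE 0.11, adjusted p = 0.747). The whole-gene count includes cells without the deletion. The defining paraventricular genes were low, with Sim1 between 0.63 and 2.51 CPM, Avp between 5.25 and 38.2 CPM and Oxt between 4.0 and 27.6 CPM, none at 0. Slc17a7, a marker of cortical and hippocampal excitatory neurons, stood between 662 and 1019 CPM. The clock values below cover all regions and cell types in these samples, and in them fewer cells of a type and less RNA per cell cannot be told apart.

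The promoters of Per1, Nr1d1, Per3 and Dbp are shown because these genes gave the main contrast between libraries: Per1 and Nr1d1 lay above WT in CPM in every KO library, whereas Per3 and Dbp were low in the male KO libraries and high in the female one. Each is the RefSeq window of GRCm38.p6 from 250 bases before to 50 bases after a transcript start, read 5′ to 3′ on the gene's strand. Capitals mark matches, on either strand, to the E-box, spelled CACGTG. They also mark the variant E-box, spelled CACGTT and read backwards where it lies on the other strand. The last motif marked is the D-box bound by DBP, spelled TTATGTAA or TTACGTAA.
Per1, chr11:69098699-69098998, plus strand: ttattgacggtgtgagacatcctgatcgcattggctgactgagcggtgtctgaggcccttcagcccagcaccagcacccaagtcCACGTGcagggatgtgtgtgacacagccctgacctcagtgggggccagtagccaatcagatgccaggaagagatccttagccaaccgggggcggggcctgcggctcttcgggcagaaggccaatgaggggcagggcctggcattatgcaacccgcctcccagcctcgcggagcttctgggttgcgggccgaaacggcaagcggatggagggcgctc
Nr1d1, chr11:98775328-98775627, minus strand: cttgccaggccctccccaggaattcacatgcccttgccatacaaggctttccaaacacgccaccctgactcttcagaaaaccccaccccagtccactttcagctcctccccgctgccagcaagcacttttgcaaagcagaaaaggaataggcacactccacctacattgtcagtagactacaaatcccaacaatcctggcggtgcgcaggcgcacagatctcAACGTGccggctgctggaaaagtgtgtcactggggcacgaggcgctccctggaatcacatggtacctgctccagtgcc
Per3, chr4:151044616-151044915, minus strand: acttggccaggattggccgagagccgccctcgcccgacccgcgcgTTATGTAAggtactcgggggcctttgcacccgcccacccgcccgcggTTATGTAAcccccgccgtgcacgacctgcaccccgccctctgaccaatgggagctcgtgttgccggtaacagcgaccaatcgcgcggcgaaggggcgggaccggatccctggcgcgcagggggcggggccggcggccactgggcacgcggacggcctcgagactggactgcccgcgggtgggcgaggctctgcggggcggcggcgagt
Dbp, chr7:45704997-45705296, plus strand: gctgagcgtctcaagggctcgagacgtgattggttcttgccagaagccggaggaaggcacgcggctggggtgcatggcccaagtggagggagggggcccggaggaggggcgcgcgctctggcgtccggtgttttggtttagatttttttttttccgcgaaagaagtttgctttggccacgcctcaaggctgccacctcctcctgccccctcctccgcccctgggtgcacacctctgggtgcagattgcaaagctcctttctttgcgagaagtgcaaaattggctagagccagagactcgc
The first Per1 window held 1 E-box at −166 to −161 from the start, the Nr1d1 window 1 variant E-box at −28 to −23, and the Per3 window 2 D-boxes at −205 to −198 and −158 to −151. The Dbp window held none of these letters. Of 32851 RefSeq promoter windows of this length, 7.15% held an E-box, 4.68% a variant E-box and 1.06% a D-box on either strand. Among the other members with a window, Cry1 held an E-box at −60 to −55 and a variant E-box at −79 to −74, Cry2 held a variant E-box at −166 to −161, and the second Arntl window held the ROR element core TAGGTCA at 31 to 37 after its start. The core TAGGTCA or TGGGTCA was in 6.45% of windows. The cAMP response element TGACGTCA, in 1.79% of windows, was in no member window, Arntl, Npas2, Per1, Per3, Cry1, Cry2, Nr1d1, Nr1d2 and Dbp all searched. A second Per1 window, and those of Npas2, Nr1d2 and the first Arntl start, held none of the motifs. These are matches of letters and say nothing about binding.

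All 10 genes were expressed in every library. By TPM, the deposited unit that accounts for transcript length, Nr1d1 stood highest with a mean over 6 libraries of 112 ± 9.27 TPM (SD). Cry2 (60.6 ± 12.6 TPM), Dbp (55.4 ± 20.0 TPM), Npas2 (46.7 ± 9.76 TPM), Nr1d2 (41.2 ± 6.97 TPM) and Arntl (38.7 ± 6.10 TPM) followed, and the ranges of neighbours in this order overlapped. Per1 was lower at 24.5 ± 3.20 TPM. Cry1 (12.6 ± 2.86 TPM), Per3 (9.59 ± 2.54 TPM) and Per2 (9.19 ± 2.19 TPM) were lowest and overlapped one another. Nr1d1 lay above Cry2, Per1 below Arntl, and Cry1 below Per1 with no overlap over the 6 libraries.

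The question of the comparison is how loss of ADAM17 in glutamatergic neurons changes gene expression in this tissue. None of the 10 clock genes passed the test over all genes tested (edgeR quasi-likelihood test with genotype and sex, Benjamini-Hochberg adjusted p under 0.05), a call that 0.00528% of genes received. At an unadjusted p under 0.05 there were 3 of 10, Npas2, Per1 and Nr1d1, all higher in KO, where 6.38% of all genes reached this p and 3.85% reached it on the higher side. In the same 3 genes every KO library lay above every WT library, where 6.61% of all genes had this pattern, and 0 members had all KO libraries below, a pattern of 7.32% of all genes. Of the members, 4 had a log2 fold change above 0 and 6 below 0, with a median of −0.017 beside −0.0036 over all genes. DESeq2 called 0 of the 10 as well.

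**Figure D1:**
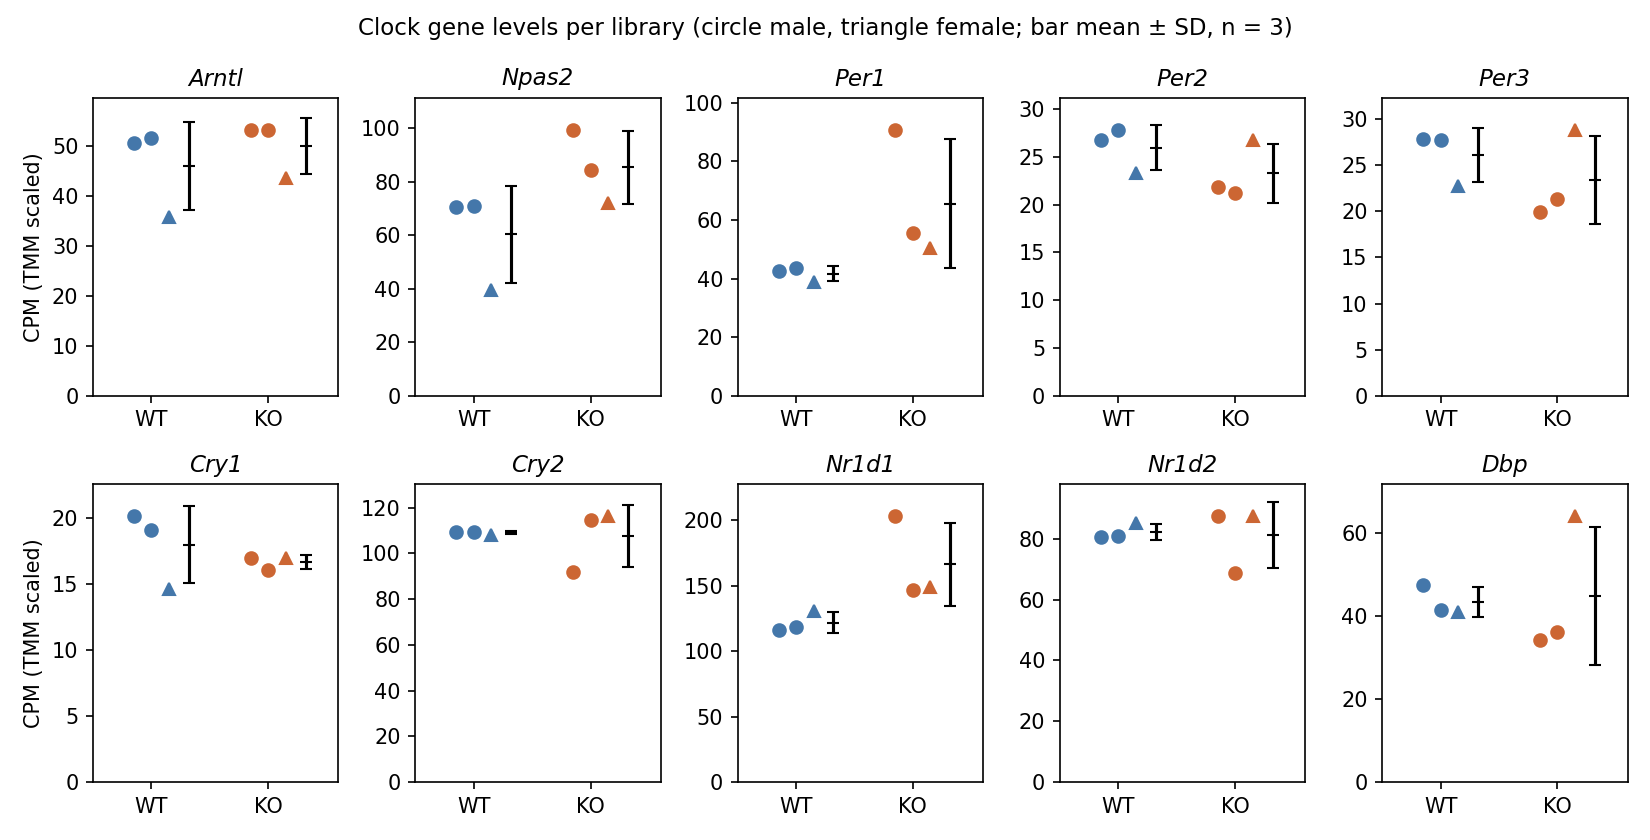
Levels of the 10 clock genes in each library (y axis, CPM with TMM scaling, from 0) for WT and KO. Circles are male and triangles female libraries, and the black bars give mean ± SD of 3 libraries. KO lies above WT without overlap in Npas2, Per1 and Nr1d1, and the male and female KO libraries part in Per2, Per3 and Dbp.

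The activator genes came first in this order of roles. Arntl, the partner without which the loop stops, stood at 50.7 and 51.7 CPM in the males and 35.8 CPM in the female of WT, against 53.3 and 53.2 CPM in the males and 43.6 CPM in the female of KO. The 4 male libraries were nearly level, both females were lower, and the genotypes overlapped (log2 fold change 0.13, SE 0.10, adjusted p = 0.786).

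Npas2 (ENSMUSG00000026077, chromosome 1, 39193731 to 39363236, plus strand, GRCm38) can take the place of CLOCK and is rich in the forebrain. It stood at 70.4 and 71.0 CPM in the WT males, 39.5 CPM in the WT female, 99.4 and 84.5 CPM in the KO males and 72.1 CPM in the KO female. The WT female was far below the rest, and the KO female lay only just above the WT males. The means were 60.3 ± 18.0 and 85.3 ± 13.6 CPM (SD, n = 3 each), and the log2 fold change was 0.54 (SE 0.14, unadjusted p = 0.00621, edgeR adjusted p = 0.735). It was 0.15 in a fit of the other 4 libraries once WT replicate F1 and KO replicate 1 and the sex term were dropped; the only female in that fit is a KO library. On the log2(TPM + 1) scale the difference of Npas2 was 0.13, beside a median of −0.24 over all genes tested, and the genotypes overlapped in TPM.

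Cortical and hippocampal marker genes, read because Npas2 is rich in the forebrain, did not pass the test. All 12 genes of that list lay above 0 in log2 fold change (median 0.32), and none was at 0 in any library. Their summed level was 1446 and 1537 CPM in the males and 1118 CPM in the female of WT, against 1506 and 1763 CPM in the males and 1441 CPM in the female of KO, lowest in the library where Npas2 was lowest. The order of the other libraries was not that of Npas2: KO replicate 1, highest in Npas2, lay below WT replicate 2 in this sum, and KO replicate 2 was highest. Of 12 striatal marker genes 11 lay above 0 (median 0.33) and 0 passed, and their sum was also lowest in WT replicate F1. The part of either list in the Npas2 difference was not tested.

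Among the repressors, Per1 (ENSMUSG00000020893, chromosome 11, 69095217 to 69109960, plus strand) is the Period gene with the fastest response to outside signals. It stood at 42.6 and 43.7 CPM in the WT males, 38.7 CPM in the WT female, 90.7 and 55.4 CPM in the KO males and 50.4 CPM in the KO female. The WT libraries lay close together, and KO replicate 1 was well above the other KO libraries. The log2 fold change was 0.63 (SE 0.20, unadjusted p = 0.0160, edgeR adjusted p = 0.735), with means of 41.7 ± 2.65 and 65.5 ± 22.0 CPM (SD, n = 3 each). It was 0.37 when KO replicate 1, whose mitochondrial share was 20.6%, was left out, and 0.30 with WT replicate F1 left out as well and no sex term. Per1 was the only member whose genotypes did not overlap in CPM with or without TMM scaling and also in TPM, at 22.3 and 23.0 TPM in the males and 20.6 TPM in the female of WT, against 29.5 and 26.1 TPM in the males and 25.5 TPM in the female of KO.

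Per2 and Per3, the other Period genes, did not follow Per1. Per2 stood at 26.8 and 27.8 CPM in the WT males, 23.3 CPM in the WT female, 21.8 and 21.2 CPM in the KO males and 26.8 CPM in the KO female (log2 fold change −0.16, SE 0.14, adjusted p = 0.802). Per3, the Period gene least needed for the rhythm itself, stood at 27.9 and 27.8 CPM in the males and 22.8 CPM in the female of WT, against 19.9 and 21.4 CPM in the males and 28.8 CPM in the female of KO (−0.17, SE 0.17, adjusted p = 0.822). In both genes the male KO libraries were the lowest of the 6. The KO female stood level with the lower WT male in Per2 and was the highest of the 6 libraries in Per3. By its deposited coordinates Per3 (ENSMUSG00000028957, chromosome 4, 151003652 to 151044665, minus strand) lies wholly within the span of Camta1 on the same strand, so its count may be affected by reads of that gene.

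The ratio of Per1 to Per2 within a library, chosen after the values were seen, was 0.67 and 0.65 in log2 CPM in the WT males and 0.73 in the WT female. It was 2.06 and 1.39 in the KO males and 0.91 in the KO female. All 3 KO libraries were above WT in this ratio, which needs no scaling between libraries, and they were spread over a range that WT did not show. The ratio of Per1 to Per3 was 0.61 and 0.65 in the WT males, 0.77 in the WT female, 2.19 and 1.38 in the KO males and 0.81 in the KO female, so that the KO female came close to WT.

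The Cryptochrome genes encode the strong repressors of the loop. Cry1 stood at 20.2 and 19.2 CPM in the males and 14.7 CPM in the female of WT, against 17.0 and 16.1 CPM in the males and 17.0 CPM in the female of KO (log2 fold change −0.09, SE 0.14, adjusted p = 0.875). The KO libraries lay between the WT males and the WT female. Cry2 stood at 109 and 110 CPM in the WT males, 108 CPM in the WT female, 92.1 and 114 CPM in the KO males and 116 CPM in the KO female (−0.02, SE 0.12, adjusted p = 0.970). It was the steadiest member in WT, and KO replicate 1 was the lowest library.

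Nr1d1, the REV-ERB alpha gene, stood at 116 and 119 CPM in the males and 131 CPM in the female of WT, against 203 and 147 CPM in the males and 149 CPM in the female of KO. KO replicate 1 was again the highest, as in Per1. The means were 122 ± 7.84 and 166 ± 32 CPM (SD, n = 3 each), with a log2 fold change of 0.45 (SE 0.15, unadjusted p = 0.0233, edgeR adjusted p = 0.735), and 0.27 without KO replicate 1. In TPM the genotypes overlapped, at 101 and 103 TPM in the WT males, 116 TPM in the WT female, 111 and 116 TPM in the KO males and 126 TPM in the KO female. The log2(TPM + 1) difference was 0.14, beside a median of −0.24 over all genes tested. The gene (ENSMUSG00000020889, chromosome 11, 98767932 to 98775333, minus strand) overlaps the highly expressed Thra by 1075 bases on the opposite strand, and since the strand setting of the counting is not given in the sources used here, reads of that stretch cannot be told apart. Thra had a log2 fold change of −0.0086.

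Nr1d2, the REV-ERB beta gene, did not follow its paralog. It stood at 80.6 and 80.9 CPM in the males and 85.3 CPM in the female of WT, against 87.5 and 68.8 CPM in the males and 87.5 CPM in the female of KO (log2 fold change −0.02, SE 0.12, adjusted p = 0.972). The ratio of Nr1d1 to Nr1d2, also chosen after the values were seen, was 0.52 and 0.55 in log2 CPM in the WT males, 0.62 in the WT female, 1.22 and 1.09 in the KO males and 0.77 in the KO female, higher in all 3 KO libraries.

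Dbp (ENSMUSG00000059824, chromosome 7, 45705088 to 45710203, plus strand) encodes a transcription factor of the PAR bZIP family, one of the genes of widest daily swing. It stood at 47.5 and 41.4 CPM in the males and 40.9 CPM in the female of WT, against 34.1 and 36.1 CPM in the males and 63.9 CPM in the female of KO. The male KO libraries were the lowest and the female KO library the highest of all 6, which left a log2 fold change of −0.01 (SE 0.21, adjusted p = 0.991) and a spread in KO of 16.7 CPM (SD) against 3.64 CPM in WT. Dbp overlaps Sphk2 on the opposite strand by 737 bases, a gene of at most 35.5 CPM.

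**Figure D2:**
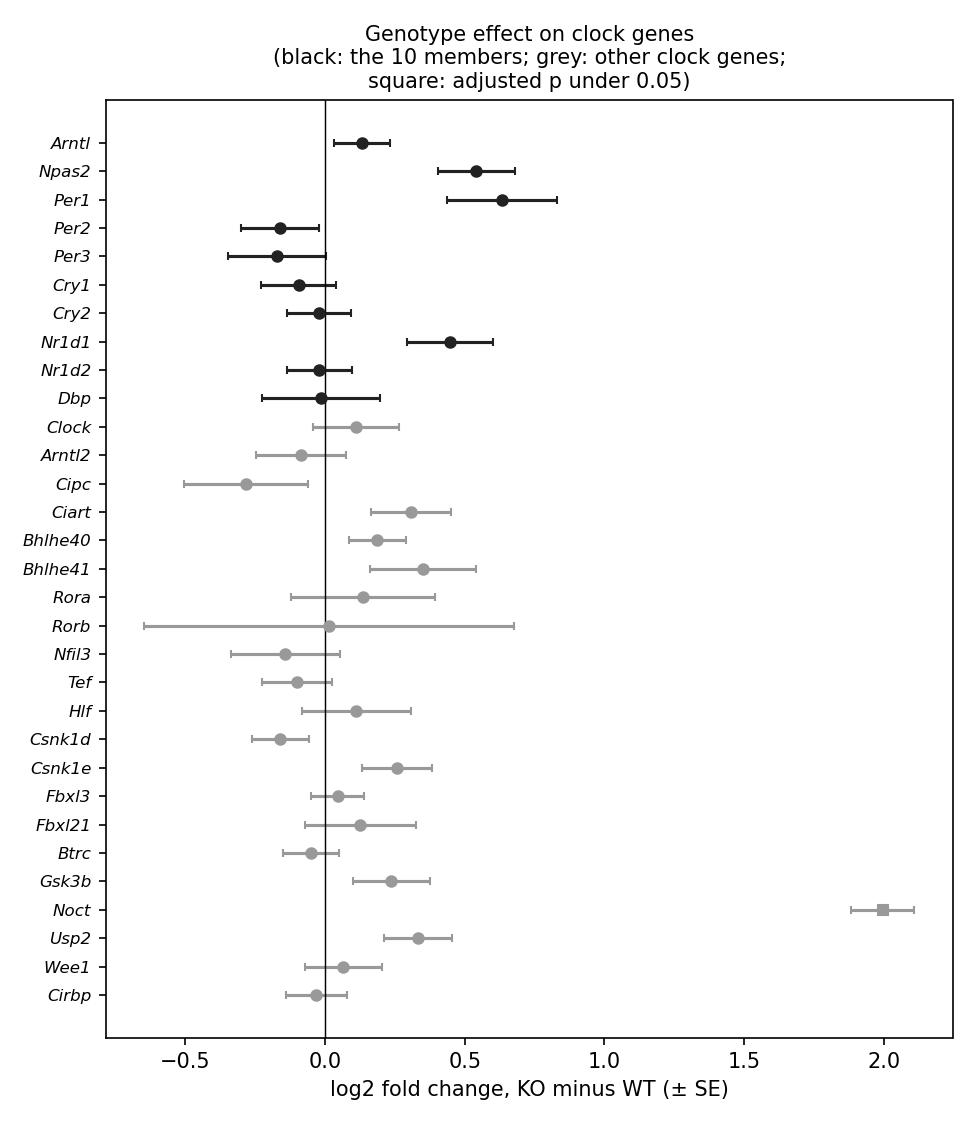
Log2 fold change, KO minus WT, with its SE (x axis) for the 10 members in black and 21 other clock genes in grey, from the edgeR fit with genotype and sex over all genes. The only square, a gene past adjusted p under 0.05, is Noct at 2.0.

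The WT males lay close together. Over the 10 members their CPM values differed by at most 13.6% of their mean, in Dbp. WT replicate F1 was the lowest of the 6 libraries in 4 members, Arntl, Npas2, Per1 and Cry1. KO replicate 1 was the highest in 5, and KO replicate F1 in 3. Relative to each gene's mean log2 CPM over the 6 libraries, KO replicate 1 lay at 0.82 for Per1 and 0.52 for Nr1d1 and at −0.30 for Per3 and −0.33 for Dbp. KO replicate F1 lay at 0.57 for Dbp and 0.24 for Per3 and at −0.03 for Per1.

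**Figure D3:**
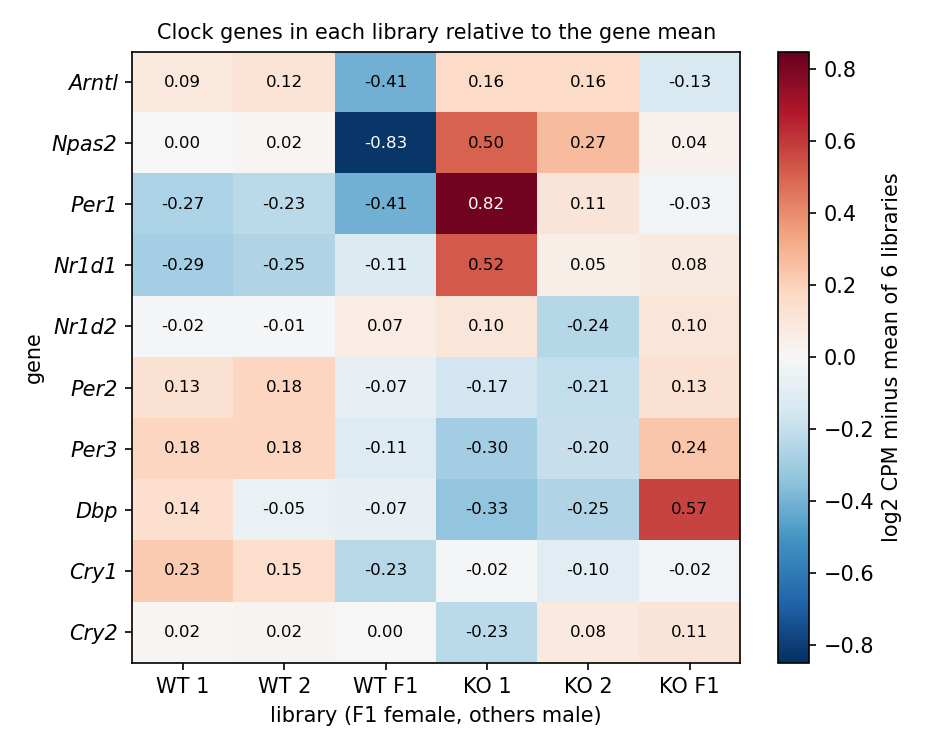
Log2 CPM of each clock gene (rows) in each library (columns) minus the gene's mean over the 6 libraries. KO 1 is high for Per1 (0.82), Nr1d1 (0.52) and Npas2 (0.50) and low for Dbp (−0.33), WT F1 is low for Npas2 (−0.83), and KO F1 is high for Dbp (0.57).

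The phase pattern was described by the mean log2 CPM of 6 members driven through E-boxes (Per1, Per2, Per3, Nr1d1, Nr1d2 and Dbp) minus that of Arntl and Npas2. Cry1 and Cry2, also switched on through E-boxes, are in neither part of the contrast. This contrast was −0.28 and −0.31 in the WT males, 0.29 in the WT female, −0.44 and −0.55 in the KO males and 0.011 in the KO female. Both females lay above all males, and within each sex the KO libraries lay below the WT libraries. The means were −0.10 ± 0.34 in WT and −0.33 ± 0.30 in KO (SD, n = 3 each), a difference of −0.22, smaller than either SD. It was −0.030 without WT replicate F1, −0.11 without KO replicate 2 and −0.39 without KO replicate F1. In WT replicate F1, Npas2 lay at −0.83 and Arntl at −0.41 relative to their mean log2 CPM over the 6 libraries. Of the 6 E-box members of the contrast, only Nr1d2 lay above its mean there, at 0.07. Whether the high contrast of that library reflects clock phase or its make-up was not tested.

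Single ratios gave different orders. The ratio of Dbp to Arntl was −0.10 and −0.32 in log2 CPM in the males and 0.19 in the female of WT, against −0.64 and −0.56 in the males and 0.55 in the female of KO, so the KO libraries held both ends of the range. The ratio of Nr1d1 to Arntl was 1.19 and 1.20 in the WT males, 1.87 in the WT female, 1.93 and 1.46 in the KO males and 1.78 in the KO female. KO replicate 1 thus had the lowest ratio of Dbp to Arntl and the highest of Nr1d1 to Arntl, although Dbp and Nr1d1 are both E-box targets.

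Of the 45 pairs of members, correlated over the 6 libraries in log2(CPM + 0.5), 0 passed after adjustment over the pairs, by Pearson or Spearman (exact permutation over 720 pairings, two-sided). The smallest adjusted values were 0.25 for Pearson and 0.0625 for Spearman. The unadjusted Pearson p was under 0.05 in 4 pairs, all positive, and in 14 pairs in log2(TPM + 1). Arntl and Npas2 had r = 0.90 (exact permutation p = 0.0125, adjusted 0.25) and rho = 0.83 (exact p = 0.0583, adjusted 0.578), and r was 0.89 without the female libraries, the 2 farthest from the median of Arntl. Per1 and Nr1d1 had r = 0.94 (exact permutation p = 0.0153, adjusted 0.25) and rho = 0.77 (exact p = 0.103, adjusted 0.578), with 0.93 without WT replicate F1 and KO replicate 1, but r = 0.26 in log2(TPM + 1).

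Per2 and Per3 had r = 0.96 (exact permutation p = 0.0208, adjusted 0.25) and rho = 0.77 (exact p = 0.103, adjusted 0.578), with 0.94 without the male KO libraries. Per3 and Dbp had r = 0.83 (exact permutation p = 0.0222, adjusted 0.25) and the same order of libraries, rho = 1.0 (exact p = 0.00278, the smallest that a two-sided test of 6 can give, adjusted 0.0625). Without the male KO libraries their r was 0.61, so that relation rests in part on these libraries. Npas2 and Per1, an activator and a repressor gene, also had the same order of libraries, rho = 1.0 (exact permutation p = 0.00278, adjusted 0.0625), with r = 0.78 (exact permutation p = 0.115, adjusted 0.625) and 0.86 without WT replicate F1 and KO replicate 1. A genotype holds 3 libraries, too few to give these relations within it.

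Sex was the other term of the fit. The females lay lower than the males in Npas2 (log2 difference female minus male −0.59, SE 0.15, unadjusted p = 0.00622) and Arntl (−0.40, SE 0.11, unadjusted p = 0.00847). Neither passed over all genes (edgeR adjusted p = 0.941 for each), and 0 members did, against 0.0422% of all genes. At an unadjusted p under 0.05 there were these 2 of 10, beside 4.58% of all genes. Without WT replicate F1, KO replicate F1 is the only female library. The sex difference was then −0.35 for Npas2, −0.29 for Arntl, 0.87 for Dbp and 0.48 for Per3. Without KO replicate F1, WT replicate F1 is the only female library. The sex difference was then −0.84 for Npas2, −0.52 for Arntl, −0.12 for Dbp and −0.29 for Per3. With 2 female libraries, and WT replicate F1 also lowest in cortical markers, sex and the make-up of these libraries cannot be told apart.

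In 4 members, Per2, Per3, Cry1 and Dbp, both male KO libraries lay below both male WT libraries. In another 4, Arntl, Npas2, Per1 and Nr1d1, both male KO libraries lay above both male WT libraries. In Cry2 and Nr1d2 the male libraries overlapped. The female KO library lay above the female WT library in all 10 members, a comparison of single libraries. The share of all genes with these orders of libraries was not counted, so they are not read as a trait of the clock genes. For Dbp the difference KO minus WT in log2 CPM was −0.34 in males and 0.64 in females. The interaction of genotype and sex was 0.98 (SE 0.24, unadjusted p = 0.00648, edgeR adjusted p = 0.348). For Per3 the differences were −0.43 and 0.34, with an interaction of 0.77 (SE 0.23, unadjusted p = 0.0160, adjusted p = 0.459).

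Per2 had −0.34 and 0.20 (interaction 0.54, SE 0.23, adjusted p = 0.691), and Cry1 −0.25 and 0.21 (0.46, SE 0.25, adjusted p = 0.811). Per1 and Nr1d1 went the other way, with interactions of −0.38 each and KO above WT in both sexes, but without KO replicate 1 that of Per1 was 0.023 and that of Nr1d1 −0.13. No member passed, against 0.0739% of all genes, and at an unadjusted p under 0.05 there were 2 of 10 beside 7.42% of all genes. Among the marker lists, the same p was reached by 8 of 12 striatal, 4 of 12 cortical and hippocampal and 3 of 10 suprachiasmatic genes. It was also reached by 3 of 7 astrocyte and 3 of 4 choroid plexus genes. It was reached by 0 paraventricular, oligodendrocyte, microglial or endothelial genes. An interaction and the make-up of these libraries cannot be told apart. The interaction rests on 1 female library per genotype. Without KO replicate 2 it passed for 4 members, Per1, Per3, Nr1d1 and Dbp, but so it did for 1493 genes in all, in a fit with 1 residual degree of freedom.

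**Figure D4:**
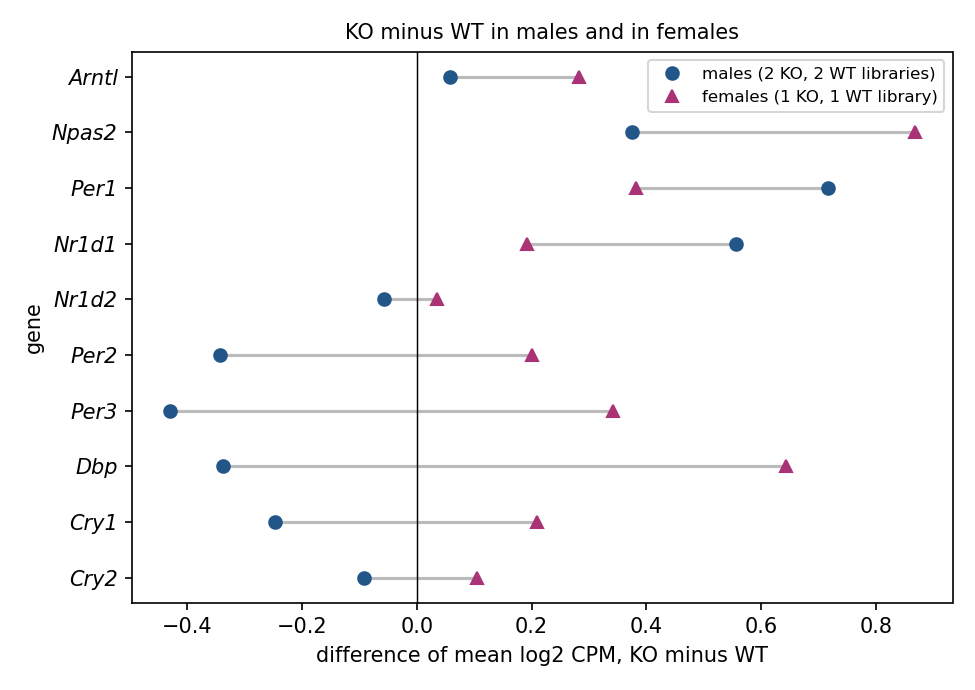
Difference KO minus WT in mean log2 CPM (x axis) for each clock gene, in males (circles, 2 KO and 2 WT libraries) and in females (triangles, 1 library each). Per2, Per3, Dbp, Cry1, Cry2 and Nr1d2 lie below 0 in males, the last 2 at −0.092 and −0.058. All 10 members lie above 0 in females, and Dbp has the widest gap (−0.34 and 0.64).

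Other parts of the clock were read from 21 further genes, all of them tested. Of these, 14 had a log2 fold change above 0 and 7 below 0, with a median of 0.11, and 1 passed. That gene was Noct, which encodes nocturnin, a phosphatase with rhythmic expression. It rose from 17.5 and 17.5 CPM in the males and 16.3 CPM in the female of WT to 77.5 and 70.9 CPM in the males and 57.3 CPM in the female of KO, a log2 fold change of 2.0 (SE 0.11, edgeR adjusted p = 0.0152). Leaving out WT replicate 1, WT replicate 2 or KO replicate 2 ended the call (edgeR adjusted p = 0.28, 0.295 and 0.121), as did the replicate number as a block (0.0572). The log2 fold change in these fits was 1.97, 1.97, 2.01 and 2.0, and DESeq2 gave an adjusted p of 1.49e-45. The highest library was 4.76 times the lowest for Noct, and at most 2.51 times, in Npas2, among the 10 members.

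The other loop repressors gave no call. Ciart, which represses CLOCK and ARNTL, stood at 4.99 and 5.02 CPM in the WT males, 7.40 CPM in the WT female, 5.52 and 6.15 CPM in the KO males and 10.3 CPM in the KO female (log2 fold change 0.31, SE 0.14). Both females were above the males, as in the ratio of Dbp to Arntl. Bhlhe41 (0.35, SE 0.19) and Bhlhe40 (0.19, SE 0.10), repressors that compete for E-boxes, and Cipc (−0.28, SE 0.22), an inhibitor of CLOCK, did not pass either. Cipc was at 40.3 CPM in KO replicate F1 and between 64.5 and 86.5 CPM in the other libraries.

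Receptors and repressors that act on ROR elements and D-boxes gave no call. Rorb, the ROR gene of cortex, thalamus and suprachiasmatic nucleus, ranged from 7.67 CPM in KO replicate 2 to 47.2 CPM in KO replicate 1 (log2 fold change 0.016, SE 0.66). Rora had 0.14 (SE 0.26) and Nfil3, a repressor at D-boxes, −0.14 (SE 0.20).

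The relatives of Dbp were not alike. Tef stood between 210 CPM in KO replicate 1 and 281 CPM in KO replicate F1 (log2 fold change −0.10, SE 0.13), the libraries where Dbp was also lowest and highest. Hlf stood at 192 and 196 CPM in the WT males, 79.7 CPM in the WT female, 154 and 187 CPM in the KO males and 131 CPM in the KO female, lowest in the females (0.11, SE 0.20).

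The kinases and ligases that time the decay of PER and CRY proteins gave 0 calls among 6 genes. The casein kinase genes Csnk1e (log2 fold change 0.26, SE 0.13) and Csnk1d (−0.16, SE 0.10) lay on opposite sides of 0. Gsk3b had 0.24 (SE 0.14) and the F-box gene Fbxl21 0.13 (SE 0.20). Usp2, a deubiquitinase gene of the clock named after its values were seen, stood at 51.9 and 49.4 CPM in the males and 40.2 CPM in the female of WT, against 57.4 and 58.2 CPM in the males and 61.9 CPM in the female of KO (0.33, SE 0.12, adjusted p = 0.735), and overlaps a gene model listed as Rnf26 on the opposite strand.

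Per1 is a target of cAMP and calcium signalling, and genes of that response lay on the same side. All 10 genes of the list lay above 0 in log2 fold change (median 0.55), and 0 passed. Egr2 (1.16, SE 0.18), Nr4a1 (0.56, SE 0.12), Fosb (0.55, SE 0.12) and Dusp1 (0.59, SE 0.15) had the smallest p. The summed level of the list was 398 and 454 CPM in the WT males, 246 CPM in the WT female, 648 and 515 CPM in the KO males and 419 CPM in the KO female. The sum was highest in the library where Per1 was highest, and KO replicate F1 lay below WT replicate 2. Egr1, named with Fos and Junb after their values were seen, made up 397 CPM of the sum in KO replicate 1. Fosb was also highest in that library (16.6 CPM), but Fos and Junb were highest in KO replicate 2 (20.7 and 61.9 CPM). The part of this list in the Per1 difference was not tested.

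Glucocorticoids also induce Per1, and the list of other glucocorticoid-induced genes was split. Of 10 genes 6 were above 0 and 4 below, with a median of 0.13 and 0 calls. Hif3a stood at 5.28 and 5.32 CPM in the males and 7.20 CPM in the female of WT, against 9.97 and 9.14 CPM in the males and 12.6 CPM in the female of KO (log2 fold change 0.83, SE 0.13, adjusted p = 0.568). Klf9 had 0.37 (SE 0.11), Cdkn1a 0.54 (SE 0.20) and Sgk1 0.17 (SE 0.12), whereas the classical targets Fkbp5 and Tsc22d3, named after their values were seen, had 0.14 and −0.09.

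Suprachiasmatic markers were present at low levels, and 0 of 10 passed. Their summed level was 78.0 and 73.2 CPM in the WT males, 80.6 CPM in the WT female, 98.4 and 80.6 CPM in the KO males and 72.9 CPM in the KO female, with overlap. Vip, the peptide of the ventral part of that nucleus, stood between 18.6 and 31.6 CPM but is also made by cortical interneurons. Nms and Six6, which are more particular to it in this region, were at most 0.35 and 1.86 CPM, and both had 0 counts in KO replicate 2.

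Among lists for other cells, astrocyte genes summed to 2856 to 2947 CPM in WT and 2840 to 3939 CPM in KO, highest in KO replicate 1. Striatal genes summed to 766 to 2251 CPM in WT and 1690 to 2093 CPM in KO, lowest in WT replicate F1. Oligodendrocyte (3151 to 3568 and 2931 to 3458 CPM), microglial (161 to 182 and 151 to 199 CPM), endothelial (188 to 217 and 195 to 217 CPM) and choroid plexus genes (164 to 726 and 326 to 417 CPM) overlapped between WT and KO. No gene of these 6 lists was at 0 in a library, 0 passed, and their part in the clock gene values was not tested.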

How the data were processed

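Per the file headers, the authors deposited a whole-number count, a TPM and an FPKM value per Ensembl gene and library. FPKM was not used further. The tools named in the submitters' processing notes are bedtools 2.26.0, FastQC 0.11.2 and Trimmomatic 0.36. For the aligner, counter, strand setting and build, nothing is given in the sources used here. All 10 members had the same coordinates as in GENCODE M21 (GRCm38), as did 94.1% of matched genes, so coordinates are read as GRCm38.

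From the deposited counts, 18956 genes passed filterByExpr, libraries were scaled by TMM, and edgeR 4.0.16 (R 4.3.3) fitted genotype and sex with robust quasi-likelihood tests, adjusted by Benjamini-Hochberg over all genes at 0.05. SE is the size of the log2 fold change over the root of the F statistic. The interaction came from a fit with the product, with 2 residual degrees of freedom. The labels do not say that libraries came from separate animals, so p-values measure the spread between these libraries, and counting precision is that of the counts given. Promoters are RefSeq's, with windows for 9 of 10 members.

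The members and lists were chosen with earlier results of these data known. Named genes are the members, Adam17 and Noct and, per other list, called genes or else the up to 4 with the smallest p; others are said to be chosen later. Alternatives were DESeq2 1.42.0, limma 3.58.1, other scalings and filters, and left-out libraries. Of the other lists, 1 gene is not reported here.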

Additional observations from a re-analysis of the deposited data

How the results depend on the processing

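The 10 members' genotype log2 fold changes were recomputed under 18 alternatives each. No member passed under any, with adjusted p of at least 0.136, and 167 of 180 values kept their sign. Signs held in 6 members, but sizes did not: with 1 library left out at a time, Npas2 lay between 0.38 and 0.66, Per1 between 0.37 and 0.78, Nr1d1 between 0.27 and 0.58, Per2 between −0.34 and −0.092, Per3 between −0.43 and −0.062 and Cry1 between −0.25 and −0.025. For Per2, Per3 and Cry1 the values farthest from 0 came when either female library was left out. With the sex term, either of these fits rests the genotype difference on the males alone, so they are not separate checks. The values nearest to 0 came without KO replicate 1 (Per3) or KO replicate 2 (Per2 and Cry1). With library totals, which move the median of all genes to −0.17, Arntl was −0.034, and with log2(TPM + 1), median −0.24, it was −0.091. Without WT replicate F1 and KO replicate 1 together and with no sex term, Arntl was −0.079, Cry2 0.079 and Dbp 0.17. Cry2 was 0.028 with voom quality weights, and Dbp 0.048 with no sex term. With 1 library left out at a time, Cry2 lay between −0.095 (without KO replicate 2) and 0.084 (without KO replicate 1), Nr1d2 between −0.11 (without KO replicate 1) and 0.082 (without KO replicate 2), and Dbp between −0.34 (without WT replicate F1) and 0.13 (without WT replicate 1). The cause of these changes was not tested.

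Over all genes, 1 was called for genotype. The count was 4 with any gene of at least 1 count, 76 with DESeq2, 4 with voom quality weights, 4 with log2(TPM + 1), 3 with no sex term, 18 in males only, 27 without WT replicate F1 and KO replicate 1 together, and 0 to 20 when each library was left out. With the replicate number as a block it was 0, and no member's call changed. Same-numbered libraries had deviations correlated at −0.044, 0.018 and 0.012, and 2 of 6 libraries correlated best with their own number, so the numbers were not taken as pairs. For sex, 8 genes were called, 55 with DESeq2 and 6 to 25 with a library left out. For the interaction 14 were called, 1 with library totals, 211 with DESeq2 and 159 to 1493 with a library left out, while 0 to 4 members were called in these fits. The difference in the phase contrast lay between −0.030 and −0.39 with a library left out, and was −0.18 in log2(TPM + 1). Correlations without the 2 farthest libraries rest on 4 libraries and were given no p. In log2(TPM + 1), 0 of 45 pairs passed, 14 had an unadjusted p under 0.05 and 27 kept their sign.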
